A study of Mus musculus with 18 samples.

Results

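Mdm2 and 6 other genes through which the p53 pathway acts back on p53 were followed across mouse embryonic stem cells exposed to DNA damage. The members were the probes of the deposited table whose only gene symbol was Mdm2, Mdm4, Rchy1, Ppm1d, Ccng1, Trp53inp1 or Zmat3. All 7 were found among the 19935 genes measured, each by 1 probe: Mdm2 on chromosome 10 (probe 10372668), Mdm4 on chromosome 1 (10357773), Rchy1 on chromosome 5 (10531290), Ppm1d and Ccng1 on chromosome 11 (10379891 and 10385271), Trp53inp1 on chromosome 4 (10503259) and Zmat3 on chromosome 3 (10497673). In R1E cells all 7 rose after adriamycin, where 22.1% of all genes were called higher, and 6 rose after ultraviolet light (UV), where 22.6% were, the exception being Mdm4. With adriamycin in p53-/- cells 0 of the 7 passed the test, where 0.0953% of all genes did. The response was larger in R1E than in p53-/- cells for 6 of them, against 10.4% of all genes.

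p53 is a transcription factor that is kept scarce in unstressed cells and becomes stable and active after DNA damage. It switches on its own inhibitors: Mdm2 is a ubiquitin ligase that marks p53 for destruction, its relative Mdm4 covers the activation domain of p53, Rchy1 (Pirh2) is a further p53 ubiquitin ligase, Ppm1d (Wip1) is a phosphatase that removes damage-induced phosphates from p53 and its kinases, and Ccng1 (cyclin G1) brings protein phosphatase 2A to Mdm2. Trp53inp1 and Zmat3 act in the other direction, Trp53inp1 as a partner of the kinase Hipk2 that phosphorylates p53 and Zmat3 (Wig1) as an RNA-binding protein that protects p53 messenger RNA. Embryonic stem cells hold much p53 protein, and its targets there include pluripotency genes.

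The promoters of 4 members are shown, those of Mdm2, Ppm1d and Ccng1, which rose with both treatments, and of Mdm4, which rose with 1. The p53 motifs in them can be set against all promoters. Rchy1 also rose with both treatments, and its windows are described below without being printed. The sequences are from RefSeq (GRCm38.p6). Each line gives the 250 bases before a RefSeq transcription start, read along the gene from 5′ to 3′. Capitals mark the p53 half-site consensus, the pair of adjoining half-sites in Ccng1, and in Ppm1d also the octamer TGACGTCA, the cyclic AMP response element.
Ccng1 promoter, chr11:40755287-40755536, minus strand: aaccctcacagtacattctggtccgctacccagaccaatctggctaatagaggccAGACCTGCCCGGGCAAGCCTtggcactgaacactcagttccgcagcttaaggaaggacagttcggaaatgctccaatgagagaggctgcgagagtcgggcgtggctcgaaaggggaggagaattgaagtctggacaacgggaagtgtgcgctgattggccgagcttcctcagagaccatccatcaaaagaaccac
Ppm1d promoter, chr11:85311004-85311253, plus strand: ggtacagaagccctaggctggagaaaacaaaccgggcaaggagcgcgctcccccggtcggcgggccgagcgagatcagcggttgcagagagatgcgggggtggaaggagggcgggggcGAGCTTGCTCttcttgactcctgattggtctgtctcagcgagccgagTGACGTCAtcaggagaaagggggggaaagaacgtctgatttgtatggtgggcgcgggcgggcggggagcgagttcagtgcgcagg
Mdm2 promoter, chr10:117710759-117711008, minus strand: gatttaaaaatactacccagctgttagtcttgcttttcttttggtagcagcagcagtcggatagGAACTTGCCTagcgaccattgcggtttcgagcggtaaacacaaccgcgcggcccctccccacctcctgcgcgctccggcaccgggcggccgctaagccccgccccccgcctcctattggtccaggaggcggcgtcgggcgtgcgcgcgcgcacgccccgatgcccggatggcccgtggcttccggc
Mdm4 promoter, chr1:133030588-133030837, minus strand: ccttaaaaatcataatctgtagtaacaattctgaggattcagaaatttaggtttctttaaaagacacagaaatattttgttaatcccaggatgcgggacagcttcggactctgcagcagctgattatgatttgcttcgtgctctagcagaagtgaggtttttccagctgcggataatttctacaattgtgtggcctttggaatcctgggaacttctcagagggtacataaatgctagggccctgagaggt

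Promoter entries were found for 5 of the 7 members, with 7 windows in all, since Mdm4 and Rchy1 have more than 1 start. Ccng1 held the pair of half-sites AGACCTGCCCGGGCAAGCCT, with 1 mismatch over both and no spacer, from 195 to 176 bases before the start. A full site with at most 2 mismatches and a spacer of up to 13 bases was present in 3.34% of all 32851 windows. A half-site without mismatch began 186 bases before the start in Mdm2 (GAACTTGCCT) and 132 bases before it in Ppm1d (GAGCTTGCTC). Of the 7 member windows 4 held such a half-site, against 7.13% of all windows. The half-site consensus is palindromic, so 1 search covers both strands. The others were in Ccng1, inside its full site, and in 1 of the Rchy1 windows (GAGCTTGTCT, 90 bases before the start). TGACGTCA, the same on both strands and bound by factors of the CREB and ATF family, began 85 bases before the Ppm1d start and was in 1.55% of all windows. Neither Mdm4 window held a half-site. The well-known p53 sites of Mdm2 lie in the first intron, outside this window, so a match or its absence here is a description of these letters only.

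Messenger RNA was measured on 18 whole-transcript arrays, as log2 intensities on which 1 unit is a 2-fold difference. The embryonic stem line R1E was mock treated, treated for 8 hours with 0.5 µM adriamycin (doxorubicin, which traps topoisomerase II and breaks DNA), or exposed to UV at 25 J/m2 and taken at 8 hours, each on 4 arrays. The p53-/- embryonic stem cells, of 129X1 x 129S1 background, were left untreated or had the same dose and time of adriamycin, each on 3 arrays. All cells grew in serum medium with leukemia inhibitory factor. How p53 was lost, and whether the p53-/- cells are 1 clone, the labels used here do not say, and the level of Trp53 was not analysed here. Nothing in the labels states that replicate arrays are independent cultures. The p-values therefore rest on array-to-array spread, possibly technical. The number of arrays limits the precision.

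Both sets carried embryonic stem cell markers. Pou5f1, Nanog and Sox2 lay above at least 98.4% of genes in R1E mock and in untreated p53-/- arrays. Other markers ranked lower in the p53-/- arrays. Esrrb lay above 97.8% of genes in R1E mock and 83.2% in untreated p53-/-, Klf4 above 91.8% and 80.9%, and Zfp42 above 96.8% and 92.0%. Lin28a, above 89.7% and 92.8%, and Dppa5a, above 99.8% and 100.0%, went the other way. In R1E 9 of 10 such markers were called lower after adriamycin, against 25.6% of all genes, and 7 of 10 after UV, against 21.2%. The log2 summed intensity of the 10 markers was 14.63 to 14.69 in mock, 14.07 to 14.20 after adriamycin and 14.40 to 14.44 after UV. In untreated and treated p53-/- cells it was 14.06 to 14.15 and 14.06 to 14.10. The part of this in the members' changes was not tested. Of 8 markers of feeder fibroblasts all were measured, and the log2 of their summed intensity was 11.73 to 11.77 in R1E mock, 11.55 to 11.60 after adriamycin, 11.45 to 11.59 after UV, 11.82 to 12.02 in untreated p53-/- cells and 11.58 to 11.90 in treated ones. Within it, Col1a1 was at 9.93 in untreated p53-/- against 6.80 in R1E mock, Col1a2 at 9.51 against 6.02 and Postn at 6.51 against 3.18, while Fn1 went the other way, at 10.63 against 11.60. Of 7 measured differentiation markers the summed value was 8.79 to 8.84 in R1E mock and 9.86 to 9.91 in untreated p53-/- cells. Log2 intensities have no zero, so a marker that is absent still has a value. The part of these markers in differences between the sets was not tested, and in bulk RNA fewer cells of a type and less RNA per cell cannot be told apart. Untreated p53-/- replicate 3 stood apart, with r = 0.988 to the mean of its group against 0.994 and 0.996 for the other arrays of the group, and values without it are given for Mdm4, Rchy1 and Zmat3.

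**Figure D1:**
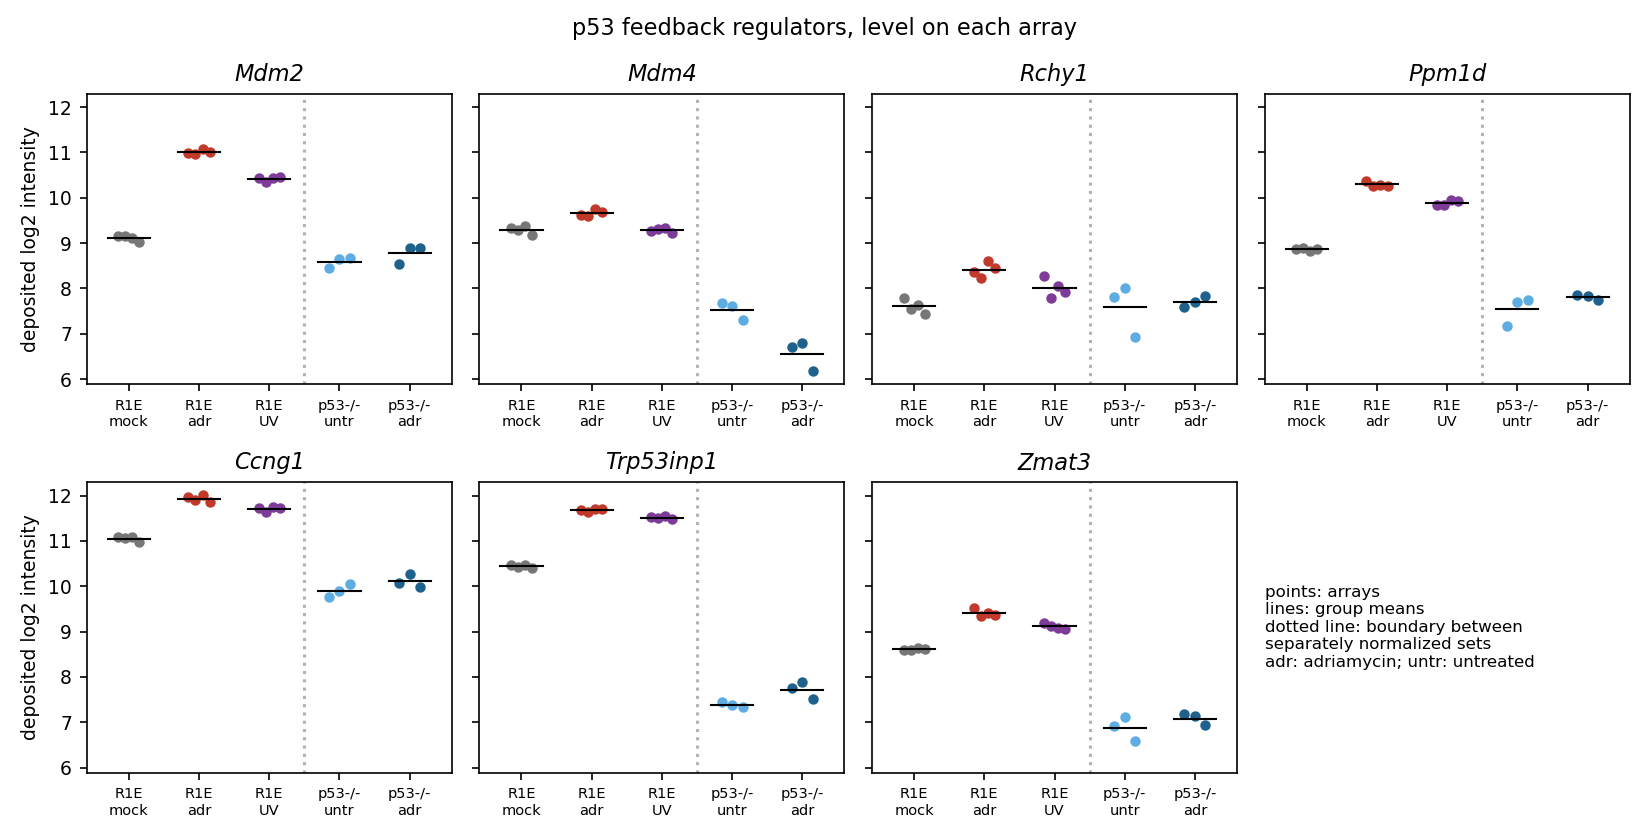
Deposited log2 intensity of each regulator (vertical axis) on each of the 18 arrays, as points, with group means as lines; the dotted line separates the R1E arrays from the separately normalized p53-/- arrays. Treated R1E arrays lie above mock for Mdm2 (10.34 or higher against at most 9.17), while Mdm4 after UV overlaps mock and Mdm4 in p53-/- cells is lower after adriamycin.

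Mdm2 had the largest response of the 7. Its level was 9.17, 9.15, 9.11 and 9.03 on the mock arrays, 10.98, 10.96, 11.07 and 11.01 after adriamycin, and 10.43, 10.34, 10.44 and 10.47 after UV. The groups did not overlap, in the order adriamycin, UV, mock. Mdm2 rose 3.71-fold after adriamycin (95% interval 3.44 to 3.99; limma, adjusted p = 3.25e-14), and 0.898% of all genes had a larger log2 change. After UV it rose 2.47-fold (2.29 to 2.66; adjusted p = 7.96e-12), and the level after adriamycin exceeded that after UV by 0.59 on the log2 scale (0.48 to 0.69; adjusted p = 1.06e-07). On the p53-/- arrays the levels were 8.44, 8.64 and 8.68 untreated and 8.54, 8.89 and 8.90 with adriamycin. These arrays overlapped, with a log2 change of 0.19 ± 0.14 (SE, n = 3 per group; limma, adjusted p = 0.648) and an interval from -0.12 to 0.50.

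Mdm4 did not follow Mdm2. It read 9.33, 9.29, 9.37 and 9.18 on the mock arrays and 9.63, 9.60, 9.75 and 9.68 after adriamycin, a small rise with no overlap. That was a 1.30-fold rise (1.20 to 1.40; limma, adjusted p = 2.09e-05). After UV the arrays read 9.26, 9.31, 9.33 and 9.22, all inside the mock range. The log2 change after UV was -0.01 ± 0.05 (adjusted p = 0.897), with an interval from -0.13 to 0.11, and the level after adriamycin was 1.30-fold above that after UV (adjusted p = 2.6e-05).

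Mdm4 values in p53-/- cells lay the other way. The untreated arrays read 7.68, 7.61 and 7.32 and the treated ones 6.72, 6.79 and 6.18, so every treated array lay below every untreated one. The log2 change was -0.97 ± 0.17 (interval -1.35 to -0.59), and 0.0602% of all genes had a lower value. It did not pass the test over all genes (limma, adjusted p = 0.0921). Without untreated replicate 3 it was -1.08 with adjusted p = 0.0136, with array weights the adjusted p was 0.00128, and with any 1 of the other arrays left out the adjusted p was between 0.215 and 0.326.

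Rchy1 was the noisiest member. Mock arrays read 7.80, 7.55, 7.64 and 7.43, adriamycin arrays 8.36, 8.23, 8.61 and 8.45, and UV arrays 8.27, 7.78, 8.06 and 7.93. Adriamycin arrays all lay above mock, while the lowest UV array lay just under the highest mock array. Rchy1 rose 1.75-fold after adriamycin (1.51 to 2.04; limma, adjusted p = 4.46e-06) and 1.33-fold after UV (1.14 to 1.54; adjusted p = 0.00388). The untreated p53-/- arrays read 7.82, 8.00 and 6.94 and the treated ones 7.59, 7.70 and 7.84. The log2 change in p53-/- cells was 0.12 ± 0.23 (adjusted p = 0.877), and -0.20 without untreated replicate 3, the array at 6.94.

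The phosphatase arm rose in R1E as well. Ppm1d read 8.83 to 8.90 on mock arrays (mean 8.87 ± 0.03 SD, n = 4), 10.26 to 10.37 after adriamycin and 9.84 to 9.95 after UV. The 3 groups did not overlap. Ppm1d rose 2.69-fold after adriamycin (2.51 to 2.88; limma, adjusted p = 3.53e-13) and 2.03-fold after UV (1.89 to 2.17; adjusted p = 6e-11). The p53-/- arrays read 7.18, 7.71 and 7.75 untreated and 7.87, 7.83 and 7.75 treated, overlapping at the edge, with a log2 change of 0.27 ± 0.16 (adjusted p = 0.543). Without untreated replicate 1, the array at 7.18, it was 0.08.

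Ccng1 was already bright in R1E mock cells, above 98.8% of genes, and lay above 97.1% in untreated p53-/- cells. In R1E it read 10.97 to 11.09 on mock arrays, 11.87 to 12.01 after adriamycin and 11.64 to 11.76 after UV, again without overlap. The rises were 1.84-fold (1.71 to 1.99; limma, adjusted p = 2.77e-10) and 1.58-fold (1.47 to 1.71; adjusted p = 1.74e-08). Its p53-/- arrays read 9.76, 9.89 and 10.05 untreated and 10.08, 10.26 and 9.99 treated. They overlapped, with a log2 change of 0.21 ± 0.13 (adjusted p = 0.588).

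Both members that support p53 rose in R1E with each treatment. Trp53inp1 read 10.41 to 10.47 on mock arrays, 11.63 to 11.71 after adriamycin and 11.48 to 11.54 after UV, and rose 2.36-fold (2.21 to 2.52; limma, adjusted p = 7.63e-13) and 2.10-fold (1.97 to 2.24; adjusted p = 1.58e-11). The treatments were closest to each other here, 1.13-fold apart (1.05 to 1.20; adjusted p = 0.00503). Among p53-/- arrays it read 7.45, 7.37 and 7.33 untreated and 7.77, 7.88 and 7.51 treated. All treated arrays were higher, yet the log2 change of 0.34 ± 0.13 did not pass the test over all genes (adjusted p = 0.365).

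Zmat3 read 8.60 to 8.64 on mock arrays, 9.34 to 9.52 after adriamycin and 9.07 to 9.19 after UV. It rose 1.74-fold after adriamycin (1.62 to 1.87; limma, adjusted p = 8.25e-10) and 1.42-fold after UV (1.32 to 1.53; adjusted p = 3.72e-07), with no overlap. On the p53-/- arrays it read 6.93, 7.11 and 6.58 untreated and 7.17, 7.14 and 6.94 treated, which overlapped, with a log2 change of 0.21 ± 0.15 (adjusted p = 0.633). That value was 0.07 without untreated replicate 3, the array that stood apart, 0.07 with array weights and 0.33 without untreated replicate 2.

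**Figure D2:**
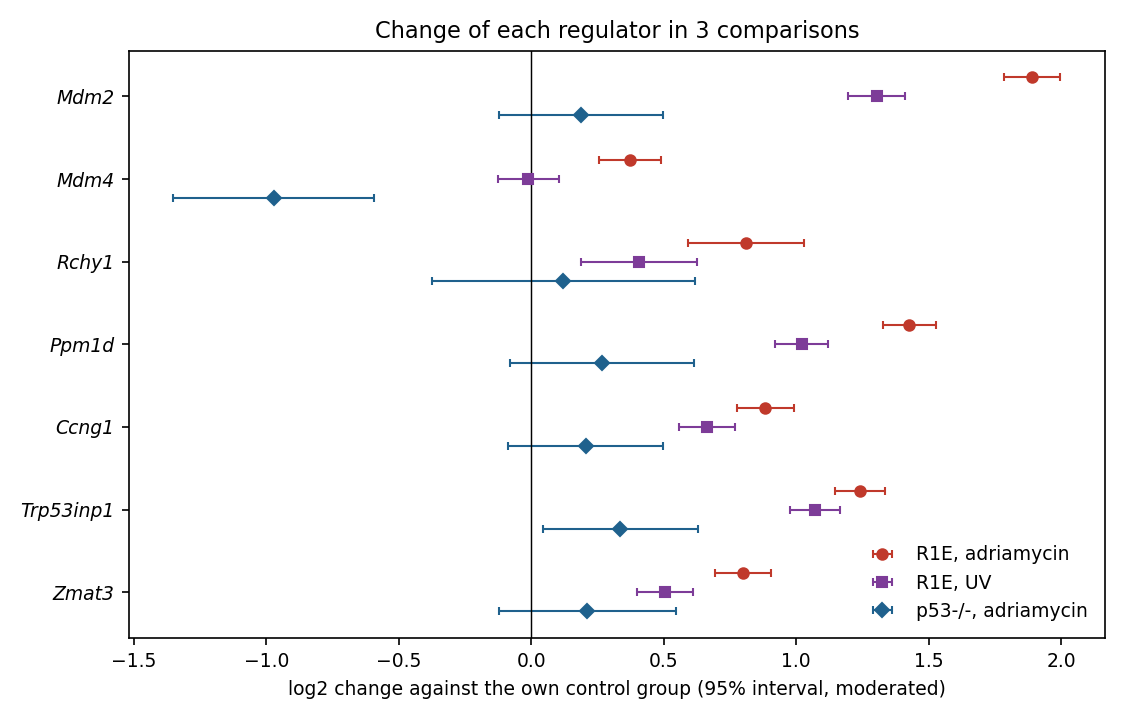
Log2 change of each regulator against the control group of its own set (horizontal axis), with moderated 95% intervals, for adriamycin and UV in R1E (n = 4 arrays per group) and adriamycin in p53-/- cells (n = 3). In R1E all adriamycin values and all UV values but that of Mdm4 lie above 0, from 0.37 to 1.89 and from 0.41 to 1.30, and in p53-/- cells Mdm4 stands at -0.97.

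Set against all genes, the 7 of 7 called higher after adriamycin in R1E compare with 22.1% of the 19935 genes called higher (47.7% in either direction) by limma at an adjusted p below 0.05. The members' median log2 change was 0.88, against -0.02 over all genes. All 7 had treated arrays wholly above mock, which 20.8% of genes did. After UV 6 of 7 were called higher, against 22.6% of genes (43.9% in either direction), with a median of 0.66 against 0.03, and 5 of 7 did not overlap, against 20.6%. The comparisons share the mock arrays. Centring each array on its median lowered every R1E change by about 0.09 on the log2 scale and left the same member counts, while the share of all calls that were higher went from 46.3% to 30.7% for adriamycin and from 51.6% to 32.9% for UV. Mdm4 was then 0.28 after adriamycin (adjusted p = 0.000664) and -0.10 after UV (adjusted p = 0.192).

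Adriamycin at this dose gave higher levels than this dose of UV for each member. All 7 were called higher in the direct comparison of treated arrays, against 19.8% of genes called higher, with log2 differences from 0.17 for Trp53inp1 to 0.59 for Mdm2 and a median of 0.38. In 6 of the 7 the adriamycin and UV arrays did not overlap, against 18.4% of genes, and Rchy1, at 1.32-fold (1.14 to 1.54; limma, adjusted p = 0.00457), was the one that did. The doses are not matched for damage, so the values describe these exposures.

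**Figure D3:**
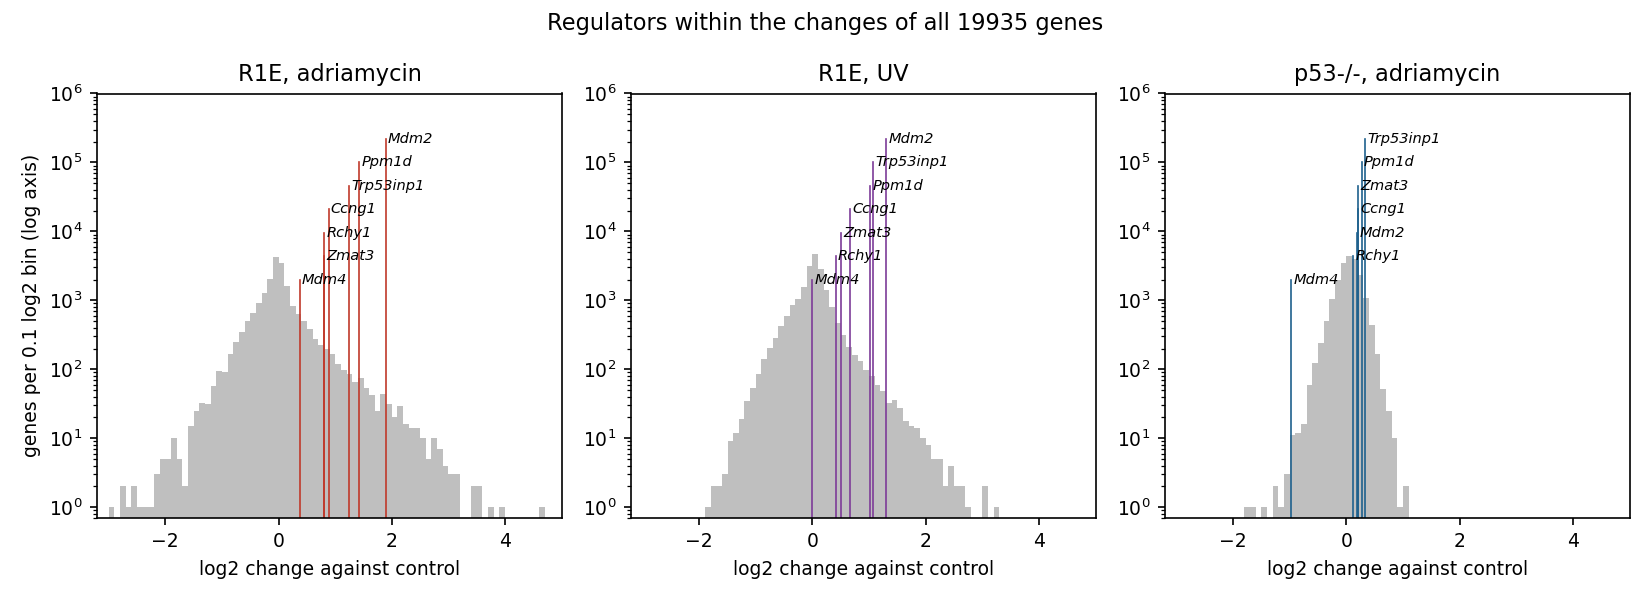
Distribution of log2 changes over all measured genes (grey bars, genes per bin of 0.1 on a log axis) in 3 comparisons, with vertical lines at the regulators' own changes. Mdm2 lies far in the upper tail after adriamycin and UV in R1E, at 1.89 and 1.30, and in p53-/- cells the lines gather between 0.12 and 0.34 except Mdm4 at -0.97.

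For p53-/- cells, 0 of the 7 members were called after adriamycin (limma), where 0.0953% of all genes were called in either direction, so few calls of any kind were made there. At an unadjusted p below 0.05 there were 2 members, Mdm4 and Trp53inp1. The share of all genes below that threshold was not counted, so whether 2 of 7 is more than that share was not tested. Treated and untreated arrays did not overlap for these 2, Trp53inp1 wholly higher and Mdm4 wholly lower, against 12.3% and 5.22% of all genes. The other 5 had log2 changes from 0.12 to 0.27. In simulated arrays with this set's spread 67.6% of 2-fold and 16.6% of 1.5-fold changes in 200 genes were recovered, so a 1.5-fold rise would mostly have gone uncalled. With array weights 1438 genes were called in place of 19, and 1 member, Mdm4, and centring the arrays took the share of higher calls from 15.8% to 0.0%. Without untreated replicate 3 the genes called were 442.

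The adriamycin response was then compared between the lines, R1E minus p53-/-, with each set keeping its own spread. The response was larger in R1E for Mdm2, by 1.70 ± 0.15 on the log2 scale (adjusted p = 7.45e-07), Mdm4 by 1.34 ± 0.18 (adjusted p = 7.41e-05), Ppm1d by 1.16 ± 0.17 (adjusted p = 0.000134) and Trp53inp1 by 0.90 ± 0.14 (adjusted p = 0.000255), all from the limma fits of both sets. Ccng1 differed by 0.68 ± 0.14 (adjusted p = 0.00259) and Zmat3 by 0.59 ± 0.16 (adjusted p = 0.0158). So 6 of 7 members were called higher, against 10.4% of genes (21.7% in either direction), with a median of 0.90 against -0.07. The gap for Mdm4 was made of a rise of 0.37 in R1E and a value of -0.97 in p53-/- cells, while for the other 5 both values were above 0.

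Rchy1 differed by 0.69 ± 0.25 and did not pass (adjusted p = 0.059). Without untreated p53-/- replicate 3 it differed by 1.01 (adjusted p = 4.25e-05). The Zmat3 difference was 0.73 without that array (adjusted p = 0.00077), and its call ended without untreated replicate 2 (0.47, adjusted p = 0.0823), without treated replicate 3 (0.52, adjusted p = 0.0732) and with the p53-/- values stretched 1.155-fold to the R1E spread of gene levels (0.56, adjusted p = 0.0507). These differences hold genotype, line, array set and software together, which cannot be told apart.

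Starting levels can only be set side by side, because the sets were normalized separately. As deposited, Trp53inp1 was at 10.44 in R1E mock and 7.38 in untreated p53-/- cells, a gap of 3.06, or 2.88 with the array medians aligned. Of all genes 0.196% had a larger aligned gap. The aligned gaps were 1.58 for Mdm4 and 1.56 for Zmat3, which 3.22% and 3.32% of genes exceeded. They were 1.14 for Ppm1d and 0.97 for Ccng1, which 8.90% and 12.4% exceeded. By rank Ccng1 lay above 98.8% of genes in R1E mock and 97.1% in untreated p53-/- cells, and Ppm1d above 85.8% and 77.6%. The spread of gene levels was 1.155-fold wider in R1E mock, which aligning the medians does not change. The part of this spread in the gaps was not tested. Mdm2 had an aligned gap of 0.35, which 32.2% of genes exceeded, and by rank it lay above 88.4% of genes in R1E mock and 89.0% in untreated p53-/- cells, so its order between the sets depends on the scale used. Rchy1 had an aligned gap of -0.16, which 58.5% of genes exceeded, and was at 7.60 in R1E mock and 7.59 in untreated p53-/- cells as deposited. The lines also differed in the collagen and differentiation markers given above, whose part in these gaps was not tested.

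Other genes that act on p53 moved in both directions in R1E. The counts of called genes in each list stand against 22.1% of all genes called higher and 25.6% lower after adriamycin, and 22.6% and 21.2% after UV. Of 25 measured p53 ubiquitin enzymes 8 were higher and 14 lower after adriamycin, with a median log2 change of -0.14. Usp2, a deubiquitinase that stabilises Mdm2, rose 2.10-fold (1.07 ± 0.06) and the ubiquitin ligase gene Siah1b, a known p53 target, was at 0.94, while Topors was at -0.65, the E2 enzyme gene Ube2d2a at -0.50 and Cop1, a p53 ubiquitin ligase, at -0.41. Siah1a, at 0.10, and Usp7, which deubiquitinates p53 and Mdm2, at -0.11, did not pass. After UV 7 were higher and 11 lower, with Siah1b at 0.92, Usp2 at 0.78, Cop1 at -0.73 and Usp7 at -0.42.

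Among 26 kinases and phosphatases of p53, 6 were higher and 15 lower after adriamycin (22.1% and 25.6% of all genes), and 3 and 15 after UV (22.6% and 21.2%). Ppp2r5d, a regulatory subunit of the protein phosphatase 2A that Ccng1 binds, rose 1.93-fold after adriamycin and 1.71-fold after UV, and Mapkapk2 was at 0.42 after adriamycin and did not pass after UV (adjusted p = 0.966). Aurka, a mitotic kinase, was at -0.67 after adriamycin and 0.02 after UV, and Dyrk2 at -0.61 and -0.25. The damage kinase gene Chek2 was at 0.23 after adriamycin, Chek1 at -0.22, and Atm, at -0.04, did not pass. After UV Atm was at -0.49 and Hipk2, the partner of Trp53inp1, at -0.80 (-0.32 after adriamycin).

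Of 28 measured cofactors and modifiers of p53, 6 were higher and 11 lower after adriamycin (22.1% and 25.6% of all genes), and 6 and 9 after UV (22.6% and 21.2%), so the share higher was near that of all genes. The large rises were in Trp73, the p53 family member p73 (5.40-fold, log2 change 2.43 ± 0.07; limma, adjusted p = 1.11e-13), and Ppp1r13l, which encodes the p53 inhibitor iASPP (4.47-fold, 2.16 ± 0.07; adjusted p = 1.81e-13). Both also rose after UV, by 1.93 and 1.73 on the log2 scale, and in p53-/- cells they were at 0.08 and 0.21 and did not pass. The deacetylase gene Sirt1 was at -0.71 after adriamycin and -0.07 after UV, Ing1 at -0.53 and -0.05, and Trp53bp2, which encodes the p53 activator ASPP2, at -0.40 and -0.14. In p53-/- cells no gene of these 3 lists was called, where 0.0953% of all genes were. Their log2 changes there ran from -0.685 to 0.527, the highest being that of Usp2 (limma, adjusted p = 0.205). The response was larger in R1E for Trp73 by 2.35 ± 0.18 (adjusted p = 7.23e-08) and for Ppp1r13l by 1.95 ± 0.14 (adjusted p = 8.7e-09). Of 42 measured p53-activated targets outside the 7 members, 36 were higher and 4 lower after adriamycin (22.1% and 25.6% of all genes). Tap1 and Fas led at 3.53 and 3.18, with Plk3 at -0.51 and Tigar at -0.31. After UV 38 were higher and 1 lower (22.6% and 21.2%), and Plk3 at 0.37 and Tigar at 0.35 were called higher. In p53-/- cells 0 of the 42 were called (0.0953% of all genes). In the difference of adriamycin effects, R1E minus p53-/-, 30 were called higher and 1 lower, with a median of 0.84. Of all genes 10.4% were called higher there and 21.7% in either direction.

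**Figure D4:**
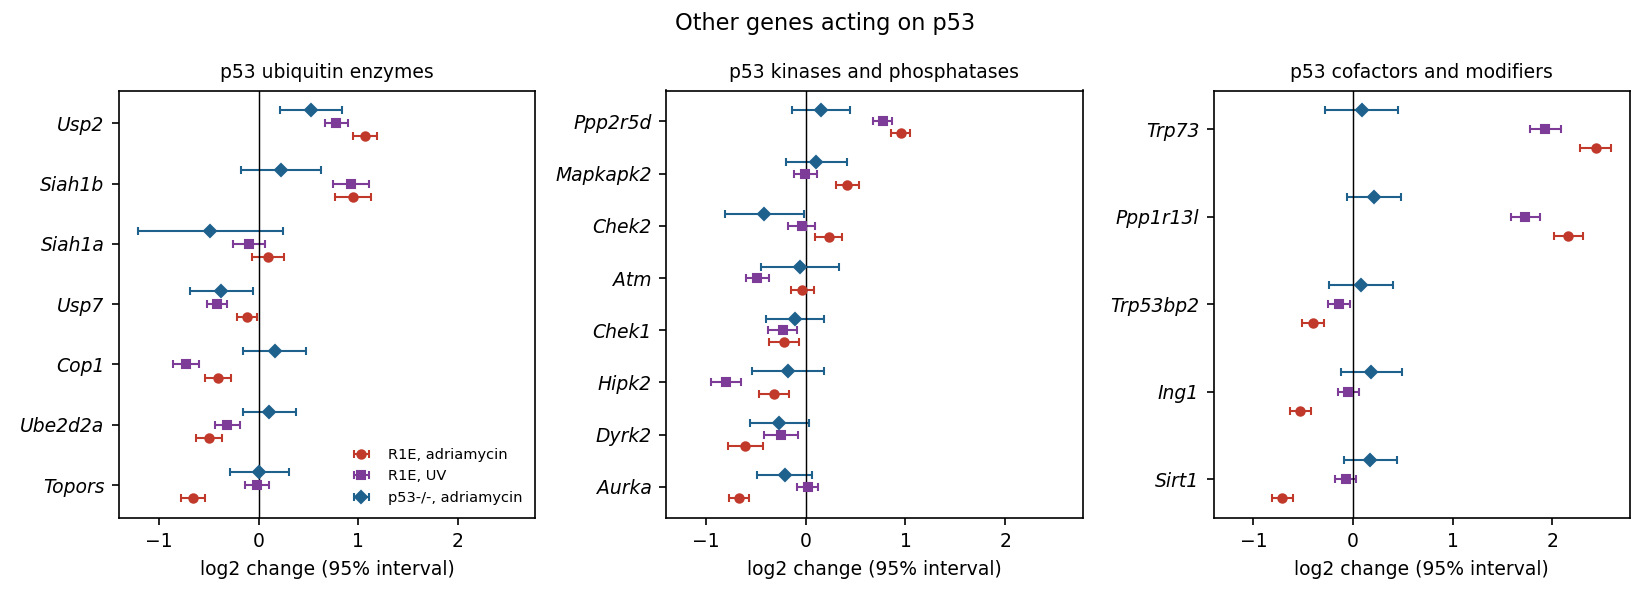
Log2 change with 95% interval (horizontal axis) of other genes that act on p53, named by a fixed rule from 3 lists, after adriamycin and UV in R1E and after adriamycin in p53-/- cells. Trp73 and Ppp1r13l lie at 2.43 and 2.16 after adriamycin in R1E and at 0.08 and 0.21 in p53-/- cells. Topors, Sirt1 and Ing1 lie at -0.65, -0.71 and -0.53 after adriamycin in R1E and at -0.02, -0.07 and -0.05 after UV.

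Patterns over the 18 arrays, each value taken relative to the control mean of its set, were compared by Pearson's r as a description. The arrays share 2 control means and 3 treatments, so the points are not independent. Closest to Mdm2 among all genes were Pm20d1, Jag2 and Rap2a (each r = 0.993) and Ppp1r36 and Scn3b (each r = 0.992), with log2 changes after adriamycin in R1E of 3.15, 2.03, 1.46, 3.71 and 3.51. Closest to Ppm1d were Zfp365 (0.991) and Baiap2 (0.990), to Ccng1 Rab23 (0.992) and Glp1r (0.991), to Trp53inp1 Apeh (0.993) and Cbs (0.990), to Zmat3 Tmbim1 (0.979) and Arpin (0.977), and to Rchy1 Prpf18 (0.958) and Pigf (0.955). Closest to Mdm4 were Rai1 (0.967) and Slc9a8 (0.962), and Slc9a8 was at 0.46 after adriamycin in R1E, -0.04 after UV and -0.72 in p53-/- cells, against 0.37, -0.01 and -0.97 for Mdm4. Among the members Mdm2 and Ppm1d had r = 0.981, Mdm2 and Ccng1 0.977, and Mdm2 and Mdm4 0.501. Over the 12 R1E arrays alone these were 0.997, 0.993 and 0.694.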

How the data were processed

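Whole-transcript arrays were used for total RNA of 18 samples. The deposited values are log2 intensities, processed, per the submitters' processing notes, with Affymetrix Expression Console 1.1 (R1E; algorithm not stated there) and with RMA in Partek 6.4 (p53-/-). Of 28853 probes 28815 had values on all arrays, 21780 of these with 1 gene symbol, 1605 with several and 5430 with none. Per gene the probe with the highest mean was used. Symbols were checked against RefSeq (GRCm38.p6; 21689 probes matched, 0 changed). No genome build for the array is stated in the labels. No 2 arrays were identical.

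Changes were fitted with limma 3.58.1 (R 4.3.3), 1 fit over 12 R1E arrays and 1 over 6 p53-/- arrays, with Benjamini-Hochberg adjustment over 19935 genes. The difference of effects combined both fits' moderated SEs with Satterthwaite degrees of freedom. On simulated arrays with 200 changed genes, the fit for adriamycin in R1E found 95.0% of the 1.5-fold and 100.0% of the 2-fold changes. For the difference, with 400 changed genes, these were 43.4% and 84.0%, with 8.0% of calls false.

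The members, lists and tests were chosen with earlier results of these data known. Named were all members, the 2 largest called rises and falls per pathway list after adriamycin in R1E, a fixed panel (Usp7, Cop1, Atm, Chek1, Chek2, Hipk2, Trp53bp2, Siah1a, Usp2), and the genes most alike in pattern. Replicate numbers did not pair the arrays.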

Additional observations from a re-analysis of the deposited data

Results flagged for a closer look

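The response to adriamycin differed between R1E and p53-/- cells, by the test of the difference itself, for 6 members. Of all genes 21.7% were called in that test, and 10.4% were called higher in R1E. The R1E response was larger by 1.70 on the log2 scale for Mdm2, 1.34 for Mdm4, 1.16 for Ppm1d, 0.90 for Trp53inp1, 0.68 for Ccng1 and 0.59 for Zmat3 (limma fits of both sets, adjusted p = 7.45e-07, 7.41e-05, 0.000134, 0.000255, 0.00259 and 0.0158). In R1E all 4 adriamycin arrays of each of these members lay above the mock arrays, which was so for 20.8% of all genes. Of the 6 members Mdm4 alone had its p53-/- arrays wholly lower after treatment, as did 5.22% of all genes. No R1E array of a member lay far from the other arrays of its group by Dixon's test, in 21 groups examined. Groups of 3 were not examined this way.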

How the results depend on the processing

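In R1E the counts of called members were 7 for adriamycin, 6 for UV and 7 for the direct comparison. In these comparisons 22.1%, 22.6% and 19.8% of all genes were called higher. The member counts held under each normalization, filter, prior, probe choice, block and omission of 1 array that was run. For adriamycin and UV against mock they also held with array weights, which were not run for the direct comparison. In p53-/- cells the count of called genes went from 19 to 5 with the replicate block and to 1438 with array weights, and from 0 to 442 with 1 array left out. Members called there went from 0 to 1 with array weights and without untreated replicate 3 (range 0 to 1), in each case Mdm4, whose adjusted p (limma) was between 0.0506 and 0.0959 under the other settings that kept all arrays. For the difference of effects the members called lay between 5 and 7 with 1 array left out. They were 5 with the p53-/- values scaled to the R1E spread of gene levels, where Zmat3 was lost. Of all 19935 genes 4331 were called in the main test of the difference, 3233 to 4978 with 1 array left out and 3596 with that scaling. Rchy1 entered with quantile normalization (adjusted p = 0.0299), with dim genes left out (0.0438), with 1 shared spread (0.0407) and without R1E mock replicate 1 (0.0401), R1E adriamycin replicate 2 (0.0408) or untreated p53-/- replicate 3. The cause was not tested. Same-numbered arrays had deviations correlated from -0.142 to 0.191, and in no comparison was every array closest to its own number, so the labels' numbers are not treated as pairs. The replicate block changed no member's call. Each member has 1 probe, so the choice of probe acted only through the other genes. All members passed the dim-gene filter in the sets where they were tested.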
